A study of Mus musculus with 2 samples.

Results

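The mouse genes described here encode 10 factors that silence retroelements and maintain imprints: Zfp57, Zfp809, Trim28, Setdb1, Ehmt1, Ehmt2, Suv39h1, Suv39h2, Atrx and Daxx. They were picked by symbol, by a rule that uses no measured value, and make up 10 of the 43346 gene rows of the deposited tables, with 95 annotated transcripts. The data are total RNA-seq of ES-E14, a pluripotent line from a male 129/Ola embryo. There is 1 group of 2 libraries, biological replicates 1 and 2, with no treatment, time course or genetic change named in the labels. Both libraries cite a single source sample, and their spread may thus be technical. No condition is compared and no test between the libraries is possible, since 1 library stands on each side.

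KRAB zinc finger proteins bind set DNA sequences in retroelements or imprinting control regions and recruit TRIM28, a scaffold also called KAP1. TRIM28 in turn brings SETDB1, which methylates lysine 9 of histone H3, the mark on which HP1 proteins dock. Other H3 lysine 9 methyltransferases (EHMT1 and EHMT2, SUV39H1 and SUV39H2) act on euchromatin and on pericentric heterochromatin, and ATRX with DAXX places the histone variant H3.3 at repeats. Embryonic stem cells are known to rely on this machinery to keep endogenous retroviruses silent.

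The libraries held 43163300 and 45573512 expected counts on genes, of which the 10 factors took 93314 and 103680. Levels are given in TPM, a share of all transcripts that corrects for length and so allows genes to be compared within a library. Much of that total was RNA other than that of nuclear protein-coding genes. Rescaled to those genes alone, Trim28 moved from 489.62 and 579.01 to 2624 and 2530 in replicates 1 and 2. A limit of 1 TPM here is therefore not 1 TPM of messenger RNA. All 9 pluripotency markers were at 1 TPM or more in both libraries, and their summed level was 1307 and 1259 TPM in replicates 1 and 2. In counts scaled with TMM factors, which set typical genes level between libraries, the sum was lower in replicate 2, at 2709 and 2080, with 4 of the 9 genes higher. Markers of other cells were summed in the same way. The 8 fibroblast markers summed to 47.6 and 154 TPM, with 5 of 8 at 1 TPM or more in both libraries and Lum at 0. Most of that sum was Acta2 alone, at 33.04 and 100.23 TPM. Of the 8, 6 were higher in replicate 2, and Thy1 was lower (2.27 and 1.62 TPM). The 4 neuroectoderm markers summed to 19.1 and 35.1 TPM, with 2 of 4 at that level. The 4 mesoderm markers summed to 1.41 and 3.55 TPM, the 4 endoderm markers to 0.960 and 5.64 TPM, and the 4 B cell markers to 0.960 and 11.0 TPM, with none of these 12 at 1 TPM in both libraries. All 5 of these sums were higher in replicate 2, also with TMM factors, and their part in the differences given below was not tested. In such bulk RNA, fewer cells of a type and less RNA per cell cannot be told apart.

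All 10 factors reached 1 TPM in both libraries, against 46.3% of 21474 protein-coding genes. Trim28 stood far above the rest and Suv39h2 was lowest. The 10 genes summed to 696 and 808 TPM, of which Trim28 alone held 70.3% and 71.7%. Transcripts annotated as retained-intron made up 59.1% and 60.3% of Trim28 TPM. Its coding transcript was at 200 and 230 TPM, still the highest coding level of the 10 genes. The order by mean gene TPM was Trim28, Zfp57, Atrx, Ehmt2, Daxx, Zfp809, Setdb1, Ehmt1, Suv39h1 and Suv39h2. The ranges over the 2 libraries overlapped between Daxx and Zfp809, between Zfp809 and Setdb1, and between Setdb1 and Ehmt1, so these neighbours did not differ in level beyond that spread. Over coding transcripts alone, Zfp809 came above Daxx and Ehmt1 above Setdb1. At the other 6 steps the ranges did not overlap, and the ratio of means ran from 1.45-fold (Ehmt1 over Suv39h1) to 6.29-fold (Trim28 over Zfp57). The steps on either side of Suv39h1, 1.45-fold from Ehmt1 and 1.64-fold to Suv39h2, were smaller than the 1.96-fold spread of Suv39h1 itself. Within each library alone the first 4 genes and the last 2 kept their places, and the order of Daxx, Zfp809, Setdb1 and Ehmt1 differed.

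**Figure D1:**
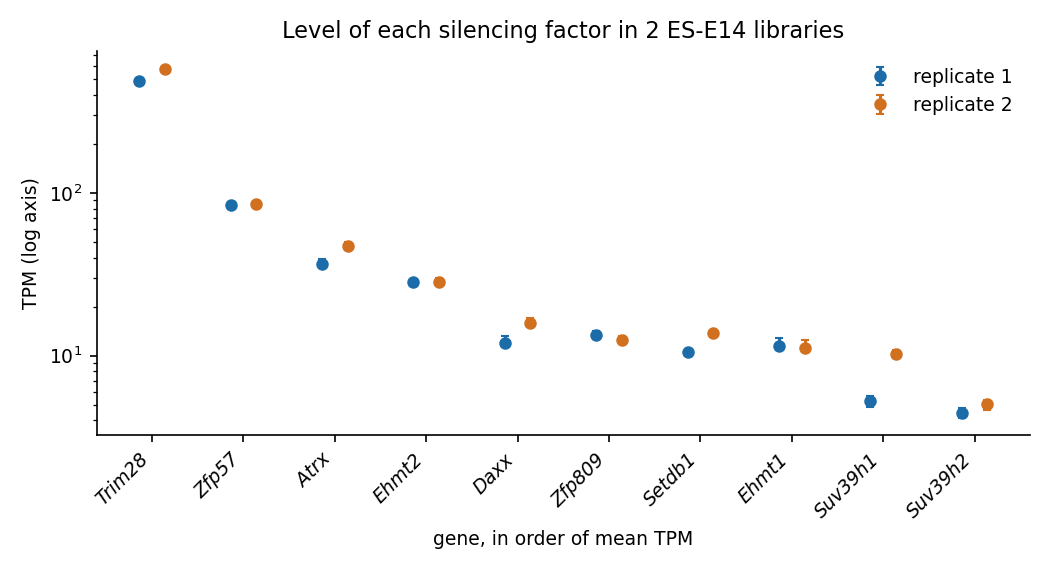
TPM of each gene (log axis) in replicate 1 (blue) and replicate 2 (orange), with bars for the deposited interval of the estimate, mostly narrower than the points. Trim28 stands at 489.62 and 579.01 TPM, the 4 genes from Daxx to Ehmt1 lie between 10.55 and 15.85 TPM, and Suv39h1 shows the widest gap between libraries.

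Among the sequence readers, Zfp57, which binds methylated imprinting control regions and protects their methylation after fertilisation, was at 84.87 and 84.97 TPM in replicates 1 and 2 (84.9 ± 0.0707, SD, n = 2). In TPM the libraries were nearly equal, and Zfp57 ranked 345 among protein-coding genes. Zfp57 lies on chromosome 17 (chr17:37001163-37010635, plus strand, GRCm38). It had 13 transcripts, of which 5 held 5% or more of its TPM. The leading transcript differed between libraries. In replicate 1 it was Zfp57-210, a 608-base retained-intron transcript, with 29.27% against 24.80% in replicate 2. In replicate 2 it was the coding transcript Zfp57-212, with 24.86% against 20.39% in replicate 1. In replicate 2 those shares were nearly equal. The coding transcripts Zfp57-211 (20.65% and 16.42%), Zfp57-201 (11.28% and 14.89%) and Zfp57-213 (10.55% and 10.91%) were the others at 5% or more. The 4 transcripts with a coding region of at least 0.9 times the longest together held 54.2% and 58.2% of Zfp57 TPM, a set chosen after the transcript values were seen.

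A promoter window of Zfp57 (chr17:37003416-37003715, plus strand, RefSeq, GRCm38.p6) is printed because it has the fewest CpG pairs among the windows of the 10 genes, with its 4 CpGs in capitals.
Zfp57: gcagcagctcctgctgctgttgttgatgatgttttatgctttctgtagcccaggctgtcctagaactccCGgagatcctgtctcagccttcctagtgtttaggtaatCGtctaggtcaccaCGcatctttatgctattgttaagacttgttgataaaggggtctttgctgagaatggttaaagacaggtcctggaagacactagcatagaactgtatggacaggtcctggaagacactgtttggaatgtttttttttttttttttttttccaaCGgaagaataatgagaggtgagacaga
All 17 RefSeq windows of the 10 genes, from 250 bases before to 50 after a start, were counted in this way. The 3 Zfp57 windows held 4 to 9 CpGs and the 14 windows of the other 9 genes held 11 to 40, beside a median of 7 over 32851 windows.

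Zfp809, which recognises the primer binding site of murine leukaemia virus-like proviruses, was at 13.37 and 12.54 TPM (13.0 ± 0.587, SD, n = 2). It is annotated at chr9:22225771-22243354 on the plus strand, by its only deposited transcript. Within each library Zfp57 stood 6.35-fold and 6.78-fold above Zfp809, or 4.43-fold and 5.03-fold when coding transcripts alone were summed. Zfp57 was the higher of these readers in both libraries.

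Trim28, the scaffold that KRAB zinc fingers recruit, was at 489.62 and 579.01 TPM (534 ± 63.2, SD, n = 2), from 60200 and 65591 counts. It ranked 51 among protein-coding genes. The deposited intervals, 479 to 494 and 568 to 584 TPM, did not overlap. Trim28 lies at chr7:13024152-13031035 on the plus strand, the span of its 9 deposited transcripts. Only 1 of them, Trim28-201, is coding, and it held 40.86% and 39.74% of TPM. The other 8 are annotated as retained-intron transcripts and together held 59.1% and 60.3%. By counts the split was the other way, with 79.7% and 80.2% on Trim28-201. TPM divides counts by length, and Trim28-201 is 3245 bases long. Among the short transcripts Trim28-203 (565 bases) had 20.99% and 32.73% of TPM, and Trim28-204 had 15.57% and 10.66%. The last one at 5% or more in a library, Trim28-208, had 5.95% and 3.23%. The deposited TPM intervals of these 4 transcripts did not overlap between libraries, as was the case for 20.3% of the 51215 transcripts of protein-coding genes averaging 1 TPM or more. Trim28-203 itself was at 102.76 and 189.48 TPM.

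Of the 95 transcripts Trim28-203 differed most in TPM between libraries, and the intron it keeps and Trim28-201 splices out is printed for that reason. It is 79 bases long (chr7:13030376-13030454, plus strand, GRCm38).
Trim28 intron: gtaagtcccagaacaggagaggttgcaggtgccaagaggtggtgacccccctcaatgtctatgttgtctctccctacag

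Setdb1, the methyltransferase that TRIM28 brings to these sites, was at 10.55 and 13.78 TPM (12.2 ± 2.28, SD, n = 2), from 3780 and 4663 counts. Replicate 2 was higher and the deposited intervals did not overlap (10.2 to 10.9 and 13.3 to 14.2 TPM). Trim28 exceeded Setdb1 46.4-fold and 42.0-fold, or 28.8-fold and 24.2-fold over coding transcripts. Setdb1 (chr3:95323525-95357202, minus strand) shares exons with Cers2, a ceramide synthase gene on the opposite strand at 19.65 and 21.38 TPM. The sources used here do not give the strand of counting, so how reads of the shared stretch were assigned is not known here. Setdb1 was the only one of the 10 genes whose deposited posterior standard deviation of the count was above 0. It was 2.73 and 2.26 reads, beside the 3780 and 4663 counts. Setdb1-202, coding, held 56.43% and 60.24% of its TPM, and the coding Setdb1-201 held 9.39% and 8.03%. The retained-intron transcripts Setdb1-204 and Setdb1-205 held 28.14% and 24.68%, and 5.29% and 5.69%.

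Ehmt2, which encodes G9a, the main writer of H3 lysine 9 dimethylation in euchromatin, was at 28.17 and 28.31 TPM (28.2 ± 0.0990, SD, n = 2). Its partner Ehmt1, which encodes GLP and forms a heterodimer with G9a, was at 11.4 and 11.13 TPM (11.3 ± 0.191, SD, n = 2). In TPM both genes were nearly equal between libraries. Ehmt2 was 2.47-fold and 2.54-fold above Ehmt1, or 2.22-fold and 1.94-fold over coding transcripts. Ehmt2 lies at chr17:34898469-34914052 on the plus strand and Ehmt1 at chr2:24789928-24919614 on the minus strand. By the later annotation used for names, Ehmt1 shares exons with Gm37139, a gene on the same strand at 0.34 and 0.38 TPM.

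One exon that Ehmt2 transcripts either include or skip is exon 10 of Ehmt2-204, all coding, of 102 bases or 34 whole codons (chr17:34905610-34905711, plus strand, GRCm38). It is printed because transcripts with and without it held similar TPM.
Ehmt2 exon 10: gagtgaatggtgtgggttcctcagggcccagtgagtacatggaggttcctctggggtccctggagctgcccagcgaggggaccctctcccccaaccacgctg
Over the 4 transcripts with both neighbouring exons, those with exon 10 held 45.6% and 50.9% of TPM (48.2% ± 3.75, SD, n = 2). The choice of this exon was made after the transcript values were seen. The leading transcript, Ehmt2-202, lacks it and held 28.98% and 25.86% of all Ehmt2 TPM. Ehmt2-204 held 18.51% and 18.68%, and Ehmt2-201, which also has it, 5.74% and 8.09%. Among the other transcripts at 5% or more were the retained-intron Ehmt2-205 (14.79% and 12.21%) and Ehmt2-210 (8.46% and 9.32%). The coding Ehmt2-206 held 7.35% and 7.41%, and Ehmt2-208, annotated for nonsense-mediated decay, held 7.08% and 8.78%. No Ehmt2 transcript had intervals that stood apart between libraries.

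Ehmt1 had 9 transcripts at 5% or more, led in both libraries by the coding Ehmt1-202 with 25.76% and 29.83%. The coding Ehmt1-203 (12.02% and 14.55%), Ehmt1-205 (11.69% and 13.74%), Ehmt1-201 (6.68% and 15.48%) and Ehmt1-211 (5.53% and 5.78%) had intervals that overlapped between libraries. Ehmt1-206, annotated for nonsense-mediated decay, held 14.59% in replicate 1 and 0.40% in replicate 2, the only Ehmt1 transcript whose intervals stood apart. The retained-intron Ehmt1-208 (6.21% and 6.65%), Ehmt1-207 (4.20% and 5.61%) and the non-coding Ehmt1-209 (5.65% and 3.79%) were the others at 5% or more in a library. Lengths of Ehmt1 transcripts mostly differ from those of the later annotation used for names, so no exon of Ehmt1 is described.

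**Figure D2:**
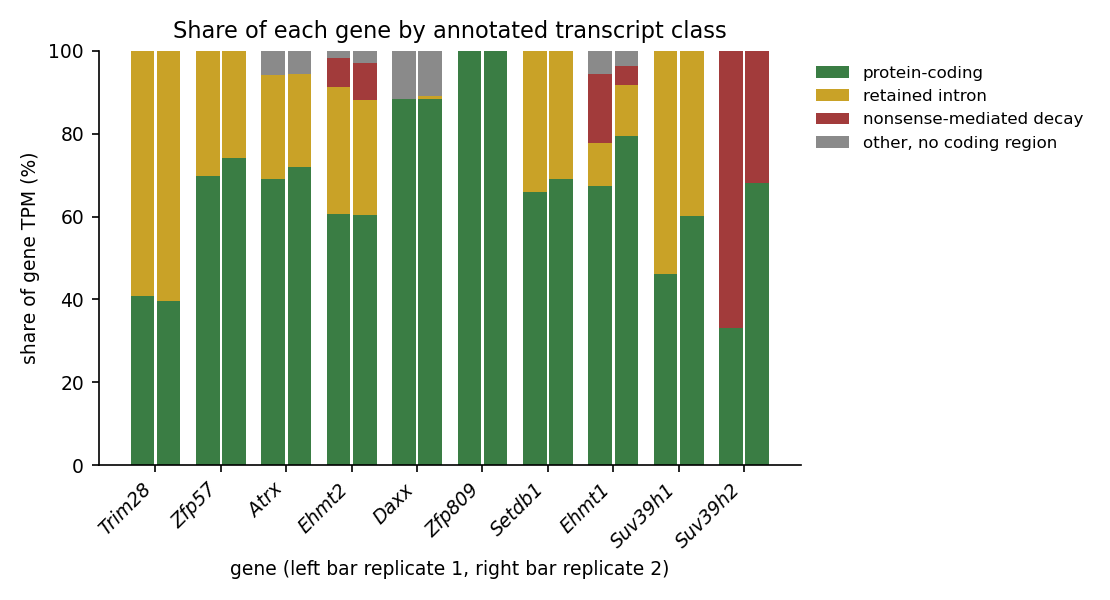
Share of each gene's TPM (percent) by annotated transcript class, replicate 1 on the left and replicate 2 on the right of each pair. Retained-intron transcripts hold 59.1% and 60.3% of Trim28, and the coding share of Suv39h2 is 33.0% in replicate 1 and 68.1% in replicate 2.

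Suv39h1, which trimethylates H3 lysine 9 at pericentric heterochromatin, was at 5.24 and 10.26 TPM (7.75 ± 3.55, SD, n = 2), from 851 and 1776 counts. Replicate 2 was 1.96-fold higher, the widest difference of the 10 genes, and the deposited intervals did not overlap (4.80 to 5.68 and 9.65 to 10.8 TPM). Its paralog Suv39h2 was at 4.46 and 5.02 TPM (4.74 ± 0.396, SD, n = 2), with overlapping intervals. The ratio of Suv39h1 to Suv39h2 was 1.17 in replicate 1 and 2.04 in replicate 2, and 1.65 and 1.80 over coding transcripts. Gm14820, an antisense gene sharing exons with Suv39h1, stood at 5.24 and 7.19 TPM, higher in replicate 2 as well. Without the strand of counting, how reads of the shared exons were assigned is not known here. The deposited posterior standard deviation of the count was 0 in both libraries for Suv39h1 and for Suv39h2. The part of Gm14820 in the Suv39h1 difference was not tested. The fibroblast marker sum (47.6 and 154 TPM), mostly Acta2, was also higher in replicate 2, and its part was not tested either. Suv39h2, with 892 and 954 counts, shares exons with Dclre1c and Gm13184 on the opposite strand. Dclre1c was at 2.33 and 1.93 TPM, from 399 and 329 counts, and Gm13184 at 0.19 and 0.12 TPM. Their part in the level and transcript shares of Suv39h2 was not tested. Suv39h1 lies at chrX:8061171-8074760 and Suv39h2 at chr2:3455815-3475031, both on the minus strand.

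The second exons of Suv39h1-203 and Suv39h2-201 are printed because every Suv39h1 transcript has its exon while Suv39h2 transcripts with theirs held a minority of TPM, a contrast chosen after the values were seen. Both are 146 bases long and all coding (chrX:8072323-8072468 and chr2:3472502-3472647, minus strand, GRCm38), and bases that differ between them are in capitals.
Suv39h1: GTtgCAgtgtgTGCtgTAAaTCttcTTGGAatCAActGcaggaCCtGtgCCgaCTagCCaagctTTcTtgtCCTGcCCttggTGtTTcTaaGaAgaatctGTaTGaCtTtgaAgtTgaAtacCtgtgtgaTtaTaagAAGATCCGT
Suv39h2: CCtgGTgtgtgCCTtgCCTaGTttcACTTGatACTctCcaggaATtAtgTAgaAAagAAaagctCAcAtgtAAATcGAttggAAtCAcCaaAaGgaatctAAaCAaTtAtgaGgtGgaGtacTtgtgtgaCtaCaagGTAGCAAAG
Laid base by base without gaps, 79 of 146 bases were identical (54.1%). All 5 deposited Suv39h1 transcripts have the exon. Of the 4 Suv39h2 transcripts, the 2 with it held 21.1% and 23.3% of Suv39h2 TPM.

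Suv39h2-204, which lacks this exon and is annotated for nonsense-mediated decay, was leading in replicate 1 with 67.04%, against 31.84% in replicate 2. The coding Suv39h2-203, which also lacks it, held 11.87% and 44.77% and led in replicate 2. Its TPM intervals were 0.0905 to 1.19 and 1.51 to 2.80, and those of Suv39h2-204 were 2.24 to 3.42 and 1.09 to 2.20. Neither pair overlapped. Suv39h2-201 held 21.1% and 23.4%, so the shift lay between the 2 transcripts without the exon.

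**Figure D3:**
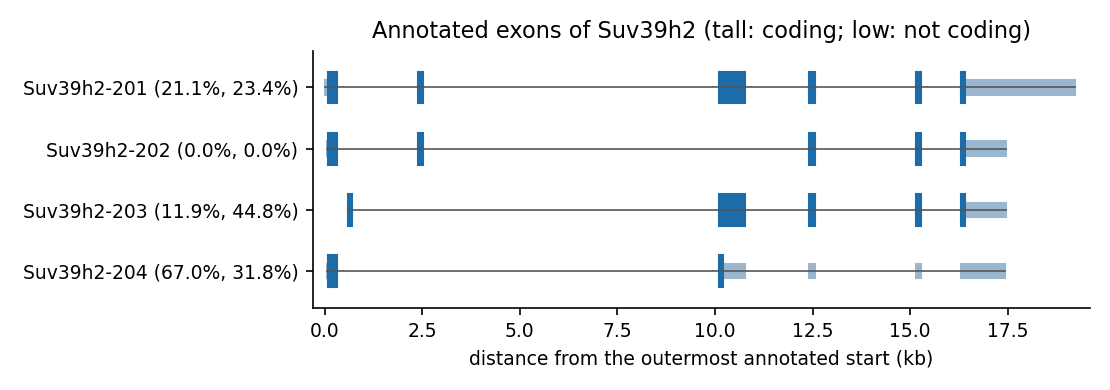
Annotated exons of the 4 Suv39h2 transcripts by distance from the outermost annotated start (kb), with coding exons tall, and the share of Suv39h2 TPM in replicates 1 and 2 in each label. Suv39h2-203 starts at its own first exon and, like Suv39h2-204, has no second exon of Suv39h2-201.

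For Suv39h1 the retained-intron Suv39h1-204 led in replicate 1 (36.81%, and 24.29% in replicate 2) and the coding Suv39h1-203 in replicate 2 (19.77% and 33.63%). The intervals of Suv39h1-203, 0.662 to 1.39 TPM and 2.83 to 4.01 TPM, did not overlap. The coding Suv39h1-201 (16.03% and 11.35%) and Suv39h1-202 (10.20% and 15.11%) and the retained-intron Suv39h1-205 (17.20% and 15.62%) had overlapping intervals. Transcripts from the outer first exon held 2.78 and 6.21 TPM, and those from the inner first exons 2.47 and 4.04 TPM. Both groups were higher in replicate 2. In the inner group the retained-intron Suv39h1-204 held 1.93 and 2.49 TPM. Only Suv39h1-203, of the outer group, had intervals that stood apart between libraries. Use of the starts themselves was not tested.

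The RefSeq promoters of Suv39h1 (GRCm38.p6, minus strand) are printed for comparison, at chrX:8074711-8075010 for the outer start and chrX:8074312-8074611 for the inner start, with CpGs in capitals.
Suv39h1 outer: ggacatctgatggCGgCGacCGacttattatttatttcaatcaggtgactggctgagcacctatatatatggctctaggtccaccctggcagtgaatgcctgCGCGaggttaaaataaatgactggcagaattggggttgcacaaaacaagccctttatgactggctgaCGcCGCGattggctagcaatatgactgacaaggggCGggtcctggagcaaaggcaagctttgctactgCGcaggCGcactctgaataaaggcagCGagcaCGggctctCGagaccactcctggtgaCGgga
Suv39h1 inner: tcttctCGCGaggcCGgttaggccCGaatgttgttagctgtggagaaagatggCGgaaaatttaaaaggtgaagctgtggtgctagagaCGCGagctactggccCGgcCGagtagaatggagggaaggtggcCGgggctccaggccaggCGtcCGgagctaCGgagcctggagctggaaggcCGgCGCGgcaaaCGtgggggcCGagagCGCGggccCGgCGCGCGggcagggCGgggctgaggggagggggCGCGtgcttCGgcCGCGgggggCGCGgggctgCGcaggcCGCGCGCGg
The outer window held 15 CpGs and the inner window 37.

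In all, 7 short motifs were searched on both strands of the promoter windows, and they were chosen after the member windows had been seen, so the counts describe these letters only. No motif contains another. Shares are of the 17 windows of the 10 genes and then of all 32851 windows, and several windows of Daxx and of Zfp809 overlap. AANATGGC was in 52.9% and 6.05%, in 6 of the genes (Atrx, Daxx, Ehmt2, Suv39h1, Suv39h2 and Zfp809). CCCGCCC was in 64.7% and 25.6%, and CCGGAAG in 23.5% and 8.86%. CCAAT was in 41.2% and 37.4%, CGCANGCGC in 17.6% and 6.31%, and TGCCGC in 17.6% and 11.6%. TATAAA was in 5.88% and 13.6%, in Zfp57 alone among the 10 genes.

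Atrx, a chromatin remodeler of the SNF2 family, was at 36.6 and 47.21 TPM (41.9 ± 7.50, SD, n = 2). Its partner Daxx, the H3.3 chaperone, was at 11.95 and 15.85 TPM (13.9 ± 2.76, SD, n = 2). Both were higher in replicate 2 in TPM, with deposited intervals that did not overlap. Atrx stood 3.06-fold and 2.98-fold above Daxx, or 2.40-fold and 2.43-fold over coding transcripts. In TPM the ratio moved less between libraries than either level, but a ratio within a library cancels any shift common to all genes. With TMM factors the log2 difference, replicate 2 minus replicate 1, was 0.185 for Atrx and 0.078 for Daxx. The smaller movement of the ratio is thus stated for TPM only. The coding sum of Atrx includes short transcripts such as Atrx-207, with 184 annotated coding bases. Atrx-202, with 7428, was at 7.28 and 10.45 TPM, beside 8.57 and 9.74 TPM for Daxx-201. Which of these was higher thus differed between libraries, a comparison made after the values were seen. Atrx lies at chrX:105797615-105929403 on the minus strand and Daxx at chr17:33909414-33915590 on the plus strand.

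Of 19 Atrx transcripts, 6 held 5% or more. The long coding Atrx-202 had 19.89% and 22.14%, and the short coding Atrx-207 had 19.98% and 16.38%. In replicate 1 these shares were nearly equal. The coding Atrx-206 (13.03% and 14.45%) and Atrx-210 (6.31% and 5.91%), the retained-intron Atrx-216 (8.15% and 6.71%) and the non-coding Atrx-204 (5.19% and 5.29%) followed. Daxx-201, coding, led in both libraries with 71.72% and 61.46%. The coding Daxx-207 (4.55% and 11.01%), Daxx-206 (6.80% and 8.79%) and Daxx-202 (3.97% and 5.61%) and the non-coding Daxx-203 (5.41% and 8.21%) and Daxx-205 (6.30% and 2.71%) were lower.

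Of the 9 genes with more than 1 transcript, the leading transcript was the same in both libraries for 5 and differed for 4, against 14.2% of 7815 such protein-coding genes averaging 1 TPM or more. Those genes were not matched on level or on number of transcripts, and for Zfp57 and Atrx the leading shares were nearly equal in a library. Deposited TPM intervals stood apart for 16 of the 95 transcripts, beside the 20.3% given above. The remaining 45 transcripts were under 5% in both libraries.

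**Figure D4:**
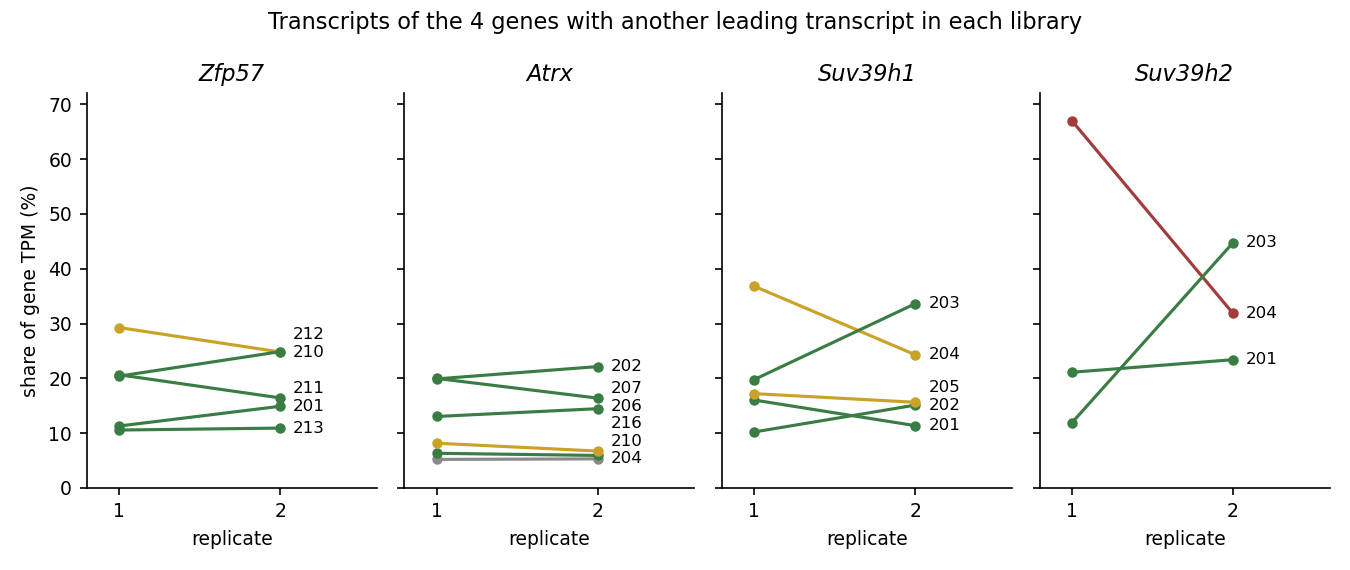
Share of gene TPM (percent) in replicates 1 and 2 for transcripts at 5% or more of the 4 genes whose leading transcript differed, labelled by transcript number (green coding, yellow retained intron, red nonsense-mediated decay, grey other). The lines of Suv39h2-203 and Suv39h2-204 cross, from 11.87% to 44.77% and from 67.04% to 31.84%.

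Between libraries, differences were taken as log2(TPM + 1) in replicate 2 minus replicate 1, a scale that understates changes of low genes. None of the 10 genes was 2-fold apart, against 3.12% of the 10480 protein-coding genes averaging 1 TPM or more. Suv39h1 came nearest, at 0.85. Daxx (0.38), Atrx (0.36), Setdb1 (0.36), Trim28 (0.24) and Suv39h2 (0.14) were higher in replicate 2 by less. Zfp57 (0.002) and Ehmt2 (0.007) were level, and Ehmt1 (-0.03) and Zfp809 (-0.09) were lower. The median of the 10 was 0.19, beside 0.23 over the 10480 genes. By sign alone, 8 of the 10 were higher and 2 lower in replicate 2, and of the 10480, 71.7% were higher. Those 8 include Zfp57 and Ehmt2, which were level.

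That split depended on scaling. With TMM factors the median of the 10480 genes moved to 0.02, and 4 of the 10 genes were higher and 6 lower, with a median of -0.12, beside 51.5% of the 10480 genes higher. Atrx, Daxx, Setdb1 and Suv39h1 were the 4 that stayed higher, and Suv39h1 was at 0.80. Deposited gene-level intervals stood apart for 5 genes, these 4 and Trim28, and overlapped for the other 5, while 64.0% of the 10480 genes had intervals that stood apart. Trim28 (-0.11), Suv39h2 (-0.13), Zfp57 (-0.20) and Ehmt2 (-0.30) changed sign with TMM scaling.

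**Figure D5:**
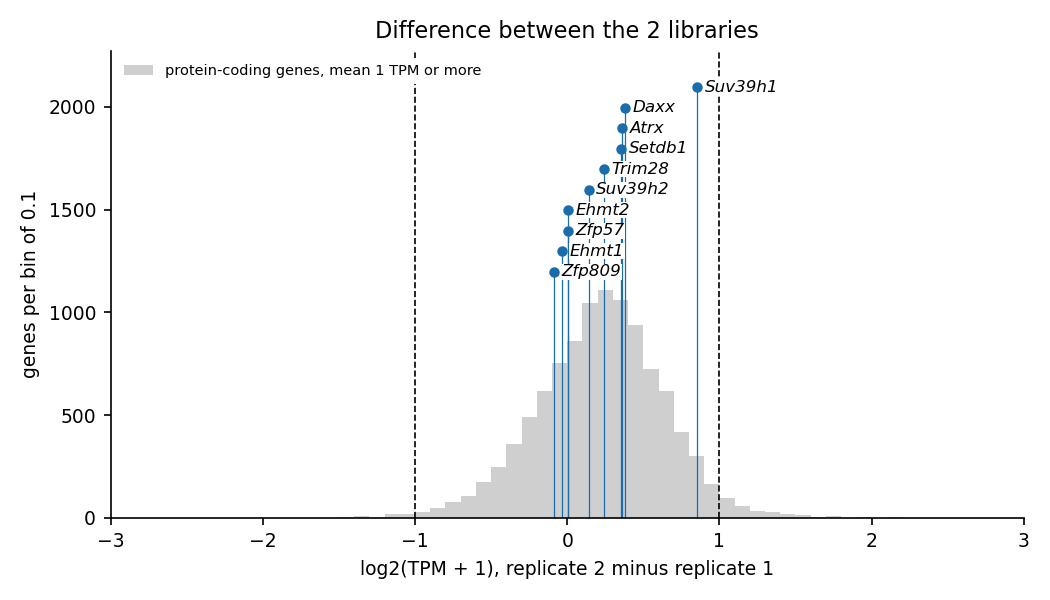
Histogram of log2(TPM + 1) in replicate 2 minus replicate 1 for protein-coding genes averaging 1 TPM or more (grey, bins of 0.1, axis limited to 3 either way), with the 10 genes as blue stems of arbitrary height and dashed lines at 2-fold. All 10 lie inside the dashed lines, with Suv39h1 at 0.85 the farthest from 0.

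Another 41 genes of the pathway, chosen for known roles and with earlier results of these data known, were measured beside them. Of these, 40 were at 1 TPM or more in both libraries, 33 were higher in replicate 2 and 1 was 2-fold apart, with a median difference of 0.27. The shares over the 10480 genes were 71.7% higher and 3.12% 2-fold apart. With TMM factors 21 of the 41 were higher, with a median of 0.005, beside 51.5% of the 10480 genes. The one 2-fold apart was Cbx3, an HP1 gene, at 19.03 and 39.7 TPM, named after its values were seen. Among the HP1 proteins, which bind methylated H3 lysine 9, Cbx5 was highest (36.91 and 56.19 TPM). Cbx1 was lowest by mean (21.53 and 35.37 TPM), though Cbx3 was lower in replicate 1. All 3 were higher in replicate 2, with TMM factors as well.

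Of 7 SETDB1 cofactors and HUSH genes, all at 1 TPM or more, Resf1 was highest (22.6 and 26.26 TPM) and Atf7ip2 lowest (2.38 and 3.6 TPM). Of 7 genes for H3.3 and its chaperones, H3f3b, which encodes H3.3 itself, was highest (98.83 and 181.4 TPM) and Ubn1, of the HIRA complex, lowest (1.53 and 2.53 TPM). Among 3 partners of G9a and GLP, Zfp644 was highest (13.13 and 14.92 TPM) and Wiz lowest (2.75 in both). Trim28 was above each of these genes in both libraries.

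Of 5 other KRAB zinc finger genes, Zfp568 was highest (17.17 and 22.24 TPM), and Zfp708 was lowest (0.09 and 0.07 TPM) and the only one of the 41 below 1 TPM. Of 3 other histone methyltransferases, Kmt5c, which trimethylates H4 lysine 20, was highest (23.28 and 15.85 TPM) and Setdb2 lowest (3.12 and 1.61 TPM). Of 8 replication and DNA methylation factors, Uhrf1, which brings the maintenance methyltransferase to replicated DNA, was highest (50.77 and 54.76 TPM) and Dppa3 lowest (3.77 and 4.45 TPM). Of 5 H3 lysine 9 demethylase genes, Kdm4a was highest (11.07 and 11.73 TPM) and Kdm3b lowest (4.6 and 6.0 TPM) by mean. In replicate 2 Kdm3a (12.81 TPM) was above Kdm4a and Kdm4b (5.1 TPM) below Kdm3b. Zfp57 was above each of the other KRAB zinc finger genes listed in both libraries.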

How the data were processed

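Per the labels, total RNA was sequenced from ES-E14 cells in 2 libraries. The deposited text listing names mm10 and GENCODE M4 for the quantification; the sources used here do not give the aligner, the quantifier or the strand of counting. Per the file headers, the authors' tables give an expected count per gene and transcript, TPM, FPKM and, for transcripts, the percent of the gene's output. The authors' posterior mean TPM, interval bounds and standard deviation of the count were used as signal values, at an interval level that the sources used here do not state.

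GENCODE M21, whose assembly GRCm38 equals mm10, gave symbols, transcript classes, exons and positions by identifier. Of the 95 transcripts, 65 have the same length in M21, and the exon contrasts and printed exons use only these. Exons shared with other genes, coding bases and gene spans were read from the M21 models of all deposited transcripts, whatever their length. Promoters came from RefSeq (GRCm38.p6). Expected counts were rounded only for TMM factors (edgeR 4.0.16) and DESeq2 1.42.0 size factors. Other steps used R 4.3.3, Python 3.11.15, numpy 2.4.6, pandas 2.3.3 and matplotlib 3.10.9.

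The rule for the 10 genes uses no measured value, but they, the pathway list and the markers were chosen with earlier results of these data known. Detection was 1 TPM or more in both libraries, and 2-fold apart was a difference of 1 or more in log2(TPM + 1). All 10 genes are named, with transcripts at 5% or more in a library, and the highest and lowest gene of each pathway group by mean TPM. Exon contrasts, first-exon groups, the Zfp57 coding set, sums over coding transcripts and promoter motifs were chosen after seeing the data. Alternatives were other TPM limits (0.5 and 5), FPKM, posterior means, the lower interval bound, rescaling to protein-coding genes, TMM and DESeq2 scaling, a pseudocount of 0.1, no filter on low values, and each library alone. Depth was 43163300 and 45573512 counts on genes, and the 10 genes had 851 to 65591 counts each.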

Additional observations from a re-analysis of the deposited data

How the results depend on the processing

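The median difference of the 10 genes, 0.191, turned negative when TPM was rescaled to protein-coding genes (-0.086), with TMM factors (-0.117) and with DESeq2 size factors (-0.095). It was 0.058 in FPKM, 0.189 with posterior means and 0.204 with a pseudocount of 0.1. The count of genes 2-fold apart was 0 under all 6 alternatives. The background share was 1.58% rather than 3.12% with no filter on low values. Over coding transcripts alone, an alternative chosen after seeing the data, mean log2 ratios were -1.05 for Ehmt1 over Ehmt2 (main -1.33, posterior means -1.28), 1.27 for Atrx over Daxx (main 1.59), -4.72 for Setdb1 over Trim28 (main -5.46) and -2.24 for Zfp809 over Zfp57 (main -2.71). With each library alone, the ratio of Suv39h1 over Suv39h2 ranged from 0.23 to 1.03 on the log2 scale. Of 55 alternatives, 43 stayed within the spread or within 1.5 times a count, 9 moved and 3 changed sign. Part of the 43 could not have come out otherwise. With 2 libraries, a log2 ratio from either library alone always lies within the SD around the mean. FPKM is proportional to TPM within a library, so ratios in FPKM had to stay the same. Genes detected in both libraries are detected in each one. The tally is thus no measure of how robust the results are. Each library alone gives an order and a leading transcript, but with 1 library no count of overlapping ranges or of shared leading transcripts exists. At 5 TPM, 9 of the 10 genes were detected. No paired analysis was possible because the series holds 1 group.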
